A study of Mus musculus with 8 samples.

Results

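The genes described here encode the machinery that licenses, unwinds and copies chromosomal DNA. They were chosen by name alone: the MCM helicase subunits and Mcm10, the origin recognition complex, the GINS complex, the clamp loader, replication protein A, the subunits of the replicative polymerases and of primase, and single factors such as Pcna, Cdc6, Fen1 and Rrm2. Of the 49 names, 47 were found among the 16980 genes of the expression table, and Cdt1 and Gins2 were not analysed here. Pole, the catalytic subunit of polymerase epsilon, is not among the names and was counted with the partners in origin licensing and firing. The values come from 8 mRNA libraries of Neuro2A (N2A) cells, a mouse neuroblastoma line that is used to study neurite outgrowth after stimulation of the cannabinoid 1 receptor. Cells received either 2 µM of the receptor agonist HU210 or an equal volume of drug-free DMSO for 2 h, 4 h, 6 h or 8 h, which gives 1 library for each of the 8 conditions. Cells of both arms had been kept without serum for 16 h beforehand, and no allele or transgene distinguishes them. Every library pooled mRNA from 2 to 3 separate experiments, so no difference between the arms at a single time point has a replicate check.

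A replication origin is marked by the origin recognition complex, on which Cdc6 and Cdt1 load the ring of MCM proteins while cells are in G1. The kinase Cdc7 with its activator Dbf4, together with cyclin-dependent kinases, turns the loaded ring into the active helicase by adding Cdc45 and GINS, and polymerases alpha, delta and epsilon then copy both strands with the sliding clamp PCNA. Many of these genes are transcribed late in G1 and in S phase under E2F transcription factors, so their mRNA levels are widely used as a sign of proliferation, and withdrawal of serum or entry into differentiation usually lowers them.

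Levels are given as FPKM (fragments counted on a transcript, divided by its length in kilobases and by a measure of library size), which the authors computed with upper-quartile normalization. The table listed 16372 to 16557 genes per time point, of which 11328 to 11444 reached 1 FPKM in a library, and the number of reads behind each value is unknown. All 47 replication genes passed the filter of the tests (listed at all 4 time points with a mean of at least 1 FPKM, 11306 genes), and the lowest single value of any of them was 2.98 FPKM. Of 12 neuronal and sympathetic markers, the 10 found in the table summed to between 362 and 446 FPKM per library. The part of each single marker in this sum is not given here. Markers of other cells stayed low in every library. They summed to between 5.68 and 6.94 FPKM for 3 glial markers, between 1.31 and 1.53 for 2 fibroblast markers, between 0.982 and 1.38 for 2 endothelial markers and between 0.261 and 0.614 for 2 macrophage markers.

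The replication genes were expressed in all 8 libraries, mostly above the typical gene, and they differed little between libraries. Their median mean level was 30.5 FPKM against 12.7 FPKM over all genes tested, and 40 of the 47 lay above the latter. The highest level of a replication gene was 1.38 times its lowest in the median (1.15 to 1.87 times over the 47 genes), close to the median of 1.40 times over all genes tested. By far the most abundant was Pcna, with a mean of 146 FPKM. The next levels, from 73.7 to 66.2 FPKM, belonged in this order to Pold2, Mcm6, Mcm2, Rpa3, Rrm1 and Lig1, and their ranges over the 8 libraries overlapped, so that this order is not firm. At the other end, 5 genes had means under 10 FPKM. They were Gins3 (3.70), Pold4 (4.50), Orc1 (4.88), Clspn (7.70) and Pola1 (8.72).

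What the replication genes shared was a lower level in the 4 late libraries (6 h and 8 h) than in the 4 early libraries (2 h and 4 h). The difference, fitted with limma on log2(FPKM + 1) with treatment as a covariate, was below 0 for 43 of the 47 genes, with a median of -0.15, while its median over all 11306 genes was -0.0072 and 52.2% of them lay below 0. The exceptions were Fen1, Orc3, Pold4 and Rfc1. Within the DMSO libraries alone the difference was below 0 for 43 genes (median -0.21, all genes -0.058). Within the HU210 libraries alone it was below 0 for only 30 genes (median -0.040, all genes 0.061). Of the 47 genes, 46 had their highest level in an early library, against 61.6% of all genes tested, and the DMSO library of 2 h held the maximum of 22 of them (11.4% of all genes). The lowest level lay in a late library for 33 genes (38.2% of all genes), most often in the DMSO library of 6 h, with 18 genes (13.3% of all genes). In a bulk library, fewer cells in the phases that express these genes and less of their mRNA per cell cannot be told apart. Time since addition and total time without serum increase together and cannot be told apart either.

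No single gene passed the test of this difference after adjustment. The limma fit (5 residual degrees of freedom, two-sided, Benjamini-Hochberg over 11306 genes) called 0% of all genes at an adjusted p of 0.05, and the smallest adjusted p of a replication gene was 0.518. With an unadjusted p under 0.05, 10 replication genes were lower late, against 2.87% of all genes, and 0 were higher, against 4.33% of all genes. The 10 genes were Cdc6, Gins4, Mcm3, Mcm5, Mcm7, Orc6, Pcna, Pole4, Rfc3 and Rfc4. This count rests on the time points used: it was 1 without the 2 h libraries (0.761% of all genes lower), 19 without those of 4 h (7.47%), 6 without those of 6 h (2.92%) and 2 without those of 8 h (1.12%). The number of genes with a difference below 0 moved less, between 39 and 44 in the same fits.

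Counted without a model, all 4 late libraries lay below all 4 early libraries for 8 of the 47 genes (17.0%), against 2.2% of all genes tested. These 8 genes, singled out after their values had been seen, were Gins4, Mcm3, Mcm5, Mcm7, Orc6, Pcna, Rfc3 and Rfc4. None of the 47 had all late libraries above all early libraries, against 3.24% of all genes. The count was 7 (14.9%, against 3.48%) with each library centred on its median, and 9 (19.1%, against 2.87%) once the trend of the values on GC content and transcript length was removed. With the libraries of 1 hour left out, which leaves fewer values to separate, it was 9 (against 4.88%) without 2 h, 27 (against 15.5%) without 4 h, 11 (against 8.12%) without 6 h and 15 (against 6.24%) without 8 h. Within the DMSO libraries alone, both late libraries lay below both early ones for 33 genes (70.2%, against 30.8% of all genes), and within the HU210 libraries alone for 14 (29.8%, against 16.1%).

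**Figure D1:**
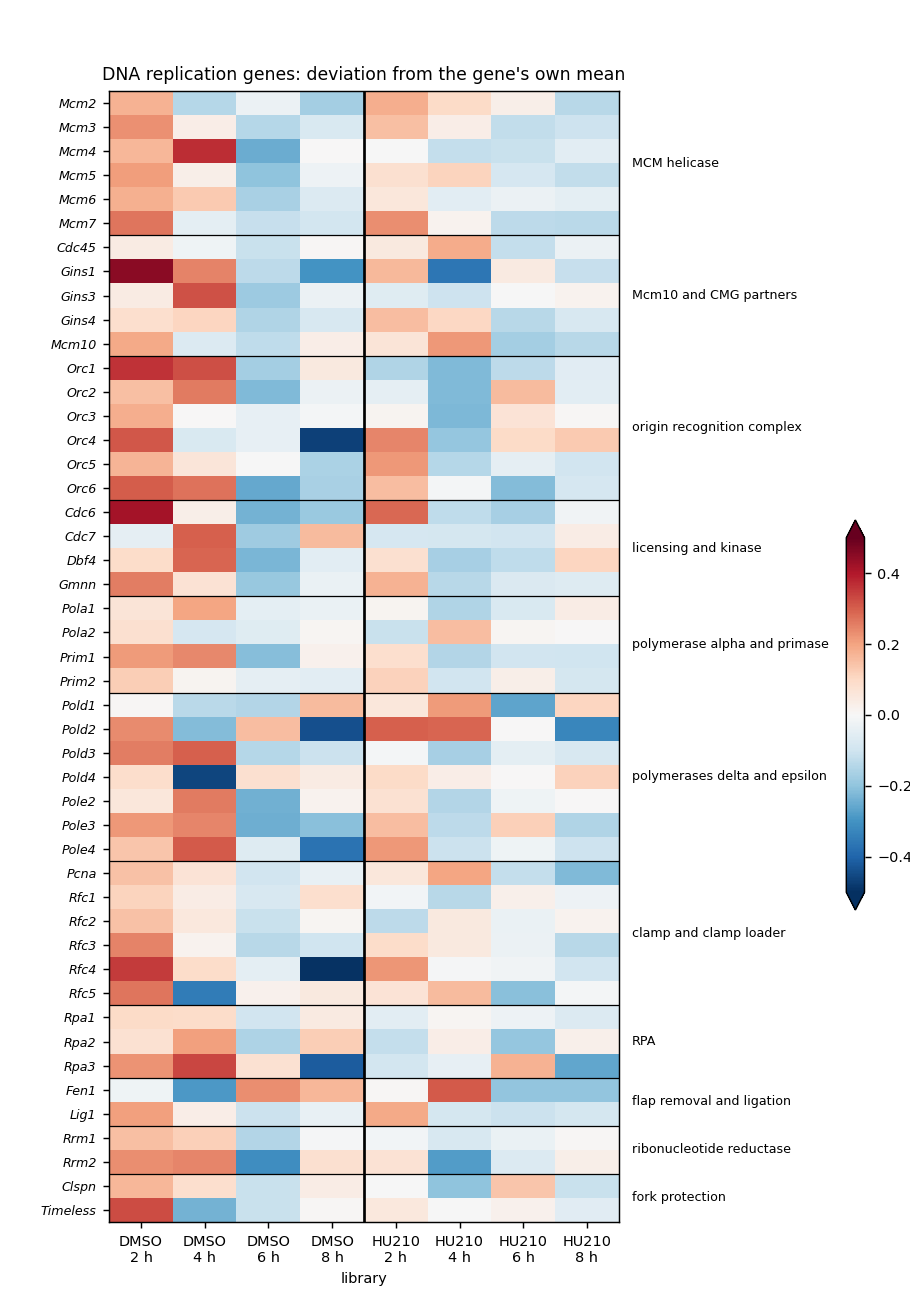
Heat map of the 47 replication genes (rows, grouped by role) in the 8 libraries (columns, 4 with DMSO on the left and 4 with HU210 on the right). Color gives log2(FPKM + 1) minus the gene's mean over the 8 libraries, and color ends at 0.5 in both directions. The DMSO library of 2 h is above the gene's own mean for 45 of the 47 genes and that of 6 h for 5.

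The 6 subunits of the MCM helicase, the ring that unwinds the duplex, all had late levels below the early ones, by a median of -0.21 on the log2 scale. Mcm3 had 67.1, 61.7, 55.3 and 56.0 FPKM with HU210 at 2, 4, 6 and 8 h and 70.7, 61.7, 54.5 and 57.1 FPKM with DMSO. Mcm5 (mm9, chromosome 8 from 77633427 to 77652338, plus strand) had 65.6, 66.9, 58.4 and 56.8 FPKM with HU210 and 71.7, 63.1, 53.8 and 60.8 FPKM with DMSO at the same times. Mcm7, the least abundant subunit, had 36.2, 31.1, 27.9 and 27.9 FPKM with HU210 and 37.1, 29.6, 28.2 and 28.7 FPKM with DMSO. In each of these 3 subunits every early library exceeded every late one, while at a given hour the arms lay close together. The differences between late and early were -0.22 ± 0.075 (SE) for Mcm3, -0.21 ± 0.077 for Mcm5 and -0.24 ± 0.090 for Mcm7. Mcm6, the most abundant subunit, had 75.1, 69.7, 70.7 and 69.7 FPKM with HU210 and 81.8, 79.1, 64.5 and 68.8 FPKM with DMSO. Its early and late values were thus apart with DMSO but overlapped with HU210. Exons of Mcm7 share 321 bp with those of Ap4m1 and 64 bp with those of Cops6 on the opposite strand, and since it is not stated whether the counting used strand, reads from there may not have been told apart.

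Among Mcm10 and the partners that complete the active helicase, all 5 genes had lower late levels over both arms. With HU210 alone, Gins1 and Gins3 were higher late (0.065 and 0.090). Gins4, a GINS subunit, had 36.5, 35.2, 29.6 and 30.9 FPKM with HU210 at 2, 4, 6 and 8 h and 34.7, 35.3, 29.3 and 30.9 FPKM with DMSO. Its arms were nearly the same at each time, and its late difference was -0.22 ± 0.064. Gins1 (chromosome 2 from 150731136 to 150757016), another GINS subunit, had 22.1, 15.1, 20.4 and 18.1 FPKM with HU210 and 27.3, 23.6, 17.9 and 15.8 FPKM with DMSO. With DMSO its level was lower at each later time, whereas with HU210 the 4 h library was the lowest. Gins3, the least abundant replication gene, had 3.48, 3.35, 3.67 and 3.73 FPKM with HU210 and 3.82, 4.82, 3.12 and 3.58 FPKM with DMSO. Mcm10, which helps the helicase to become active, had 35.5, 39.6, 30.1 and 30.7 FPKM with HU210 and 38.8, 32.4, 31.0 and 34.8 FPKM with DMSO.

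The origin recognition complex spans levels from Orc1 to Orc4, with 5 of 6 subunits lower late over both arms. With HU210 alone, Orc1, Orc2, Orc3 and Orc4 were higher late (0.092, 0.19, 0.14 and 0.087). Only Orc5 and Orc6 were lower late in that arm (-0.11 and -0.22). Orc6 (chromosome 8 from 87823531 to 87832177) had the largest difference of any replication gene in the fit of all 8 libraries, although that of Rfc4 was larger without the 4 h libraries (-0.45 against -0.41) or those of 6 h (-0.46 against -0.30). Its levels were 35.1, 31.3, 27.0 and 29.6 FPKM with HU210 at 2, 4, 6 and 8 h and 39.0, 38.2, 26.1 and 28.0 FPKM with DMSO, a late difference of -0.36 ± 0.087 (unadjusted p = 0.0029 and adjusted p = 0.518 in the limma fit). Orc1, the large subunit with ATPase activity, had 4.23, 3.98, 4.31 and 4.59 FPKM with HU210 and 6.47, 6.26, 4.16 and 5.01 FPKM with DMSO. Its HU210 values were flat, and the 2 early DMSO values stood above all others. Orc2 had 19.0, 16.7, 22.0 and 18.9 FPKM with HU210 and 21.9, 23.7, 16.7 and 19.2 FPKM with DMSO. Orc4, the most abundant subunit, had 44.5, 32.5, 40.0 and 41.0 FPKM with HU210 and 46.5, 35.3, 36.3 and 26.8 FPKM with DMSO, and the DMSO library of 8 h lay below all others. Exons of Orc4 share 446 bp with Acvr2a and 136 bp with Mbd5 on the opposite strand, those of Orc2 share 464 bp with Nif3l1, and those of Orc1 share 376 bp with the noncoding gene Gm12743. Orc5 shares 353 bp with an annotated pseudogene on its own strand.

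All 4 licensing and kinase genes were lower late over both arms, by a median of -0.16. With HU210 alone, Cdc7 and Dbf4 were higher late (0.057 and 0.033). Cdc6, the ATPase that helps to load the MCM ring, had 15.2, 11.1, 10.8 and 12.1 FPKM with HU210 at 2, 4, 6 and 8 h and 16.7, 12.5, 10.2 and 10.7 FPKM with DMSO. Both of its 2 h libraries were above every other library, and the late difference was -0.30 ± 0.13. Gmnn, the inhibitor of Cdt1, had 33.6, 26.9, 28.2 and 28.3 FPKM with HU210 and 35.6, 31.2, 25.9 and 29.0 FPKM with DMSO. Here too the 2 h values were the highest of each arm. The kinase genes Cdc7 and Dbf4 had means of 17.4 and 27.8 FPKM.

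Polymerase alpha and primase, which lay down the RNA and DNA primers, had 4 of 4 genes lower late over both arms, by a median of -0.071. With HU210 alone, Pola1 was higher late (0.048). Pola1, the catalytic subunit and the lowest of them, had 8.79, 7.73, 8.19 and 8.94 FPKM with HU210 at 2, 4, 6 and 8 h and 9.14, 10.1, 8.36 and 8.47 FPKM with DMSO. Prim1, the catalytic subunit of primase, had 46.0, 39.1, 40.5 and 40.5 FPKM with HU210 and 50.4, 51.4, 37.3 and 44.0 FPKM with DMSO. For the subunits of polymerases delta and epsilon found by the rule, 6 of 7 were lower late over both arms. With HU210 alone, Pold3 and Pole2 were higher late (0.023 and 0.025). With DMSO alone, Pold1 and Pold4 were higher late (0.071 and 0.25). Pold2, an accessory subunit, had 89.4, 88.7, 72.5 and 57.6 FPKM with HU210 and 85.3, 62.1, 80.6 and 53.2 FPKM with DMSO. Both of its 8 h libraries were the lowest of their arms, and the DMSO library of 4 h was close to them. Pold4, the smallest delta subunit and the least abundant of this group, had 4.84, 4.59, 4.47 and 4.92 FPKM with HU210 and 4.81, 2.98, 4.77 and 4.62 FPKM with DMSO. A single library, DMSO at 4 h, thus lay below all others.

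The sliding clamp and its loader had 5 of 6 genes lower late over both arms. With HU210 alone, Rfc1 and Rfc2 were higher late (0.076 and 0.032), and with DMSO alone Rfc5 was (0.075). Pcna (chromosome 2 from 132074898 to 132079050), which holds polymerases on the template, had 151, 167, 134 and 125 FPKM with HU210 at 2, 4, 6 and 8 h and 161, 153, 136 and 142 FPKM with DMSO. Every early value exceeded every late one, with a late difference of -0.23 ± 0.078, and 2 annotated pseudogenes, Pcna-ps1 and Pcna-ps2, could share its reads. Rfc3, a small subunit of the loader, had 40.7, 39.4, 37.3 and 34.4 FPKM with HU210 and 45.3, 38.6, 34.5 and 35.4 FPKM with DMSO. Rfc4, the least abundant subunit, had 18.6, 15.7, 15.6 and 14.7 FPKM with HU210 and 20.4, 16.9, 15.2 and 10.9 FPKM with DMSO. Its separation was narrow with HU210 (15.7 FPKM at 4 h, 15.6 FPKM at 6 h), and its lowest value, as for Orc4, was that of DMSO at 8 h. Rfc4 shares 194 bp of exon with Eif4a2 on the opposite strand. The remaining subunits Rfc1, Rfc2 and Rfc5 had means of 30.5, 29.5 and 40.3 FPKM and late differences between -0.074 and 0.0013.

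**Figure D2:**
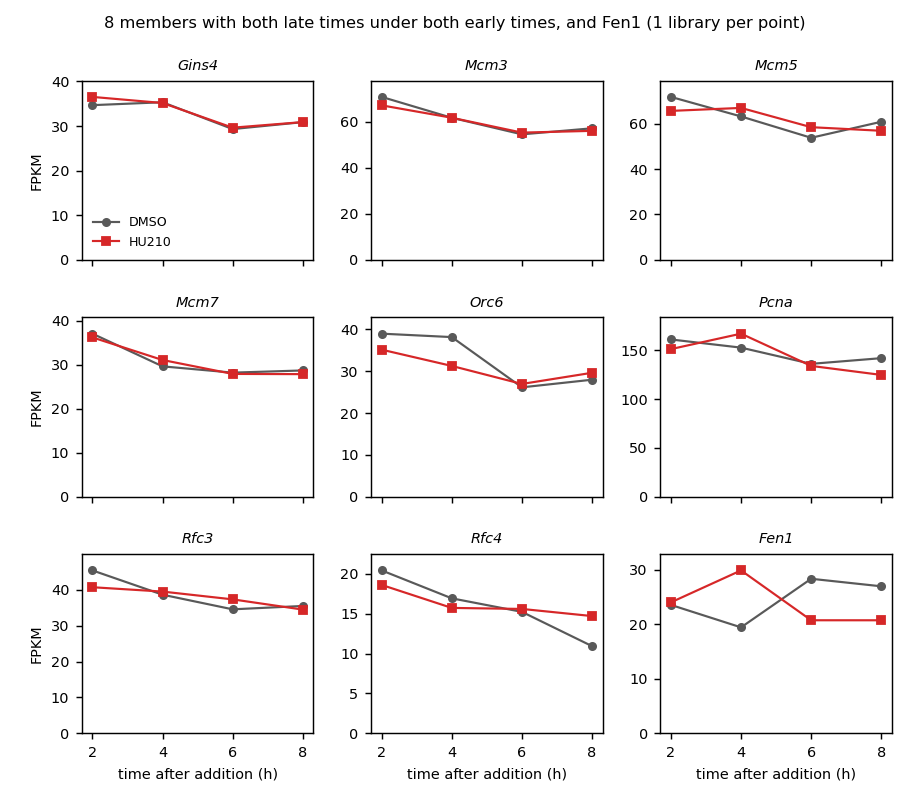
FPKM (vertical axes, from 0) by hours after addition (horizontal axes) for the 8 genes whose late libraries all lay below the early ones, and for Fen1. Each point is 1 library, circles for DMSO and squares for HU210, with no error bars since each condition has 1 library. Pcna spans 151 to 167 FPKM early and 125 to 142 FPKM late, while the lines of Fen1 cross.

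Replication protein A, which coats single-stranded DNA, had 3 of 3 subunits lower late over both arms, by a median of -0.098. With HU210 alone, Rpa3 was higher late (0.022). Rpa3, the smallest subunit, had 62.7, 65.0, 75.4 and 55.7 FPKM with HU210 at 2, 4, 6 and 8 h and 78.2, 84.4, 70.5 and 49.8 FPKM with DMSO. Rpa2 had 38.3, 42.6, 36.3 and 42.4 FPKM with HU210 and 43.9, 48.1, 37.3 and 45.4 FPKM with DMSO. It was below DMSO at each of the 4 time points, as was Lig1, against 3.43% of all genes, and Mcm2 was above DMSO at each, against 4.5% of all genes. Lig1, the ligase that seals Okazaki fragments, had 75.4, 62.0, 61.1 and 62.0 FPKM with HU210 and 76.3, 67.5, 61.1 and 64.2 FPKM with DMSO. Its largest distance between the arms, at 4 h, was a log2 difference of only -0.12.

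The 2 subunits of ribonucleotide reductase, which makes deoxynucleotides, were measured at unequal levels. Rrm1, the large subunit, had 66.5, 63.5, 65.6 and 67.5 FPKM with HU210 at 2, 4, 6 and 8 h and 74.6, 73.1, 60.7 and 67.0 FPKM with DMSO. Rrm2, the S phase subunit, had 35.0, 27.1, 31.6 and 33.9 FPKM with HU210 and 39.1, 39.5, 26.5 and 35.1 FPKM with DMSO. With DMSO the early values of both lay above the late ones, and with HU210 they overlapped. Of the genes that protect the fork, Clspn, an adaptor for checkpoint signalling, had 7.64, 6.53, 8.55 and 7.03 FPKM with HU210 and 8.72, 8.19, 7.02 and 7.90 FPKM with DMSO. Timeless had 15.6, 14.9, 15.2 and 14.3 FPKM with HU210 and 19.0, 12.5, 13.8 and 15.0 FPKM with DMSO, where the DMSO library of 2 h stood above the rest.

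HU210 and DMSO were compared by log2[(FPKM with HU210 + 1)/(FPKM with DMSO + 1)] at each hour, and a difference was counted when it reached 1.3-fold. At 2 h, 37 of the 47 genes were lower with HU210, against 63.8% of all genes (median -0.12, all genes -0.051). Only Orc1 reached 1.3-fold, with -0.51, against 4.29% of all genes. None was higher by 1.3-fold, against 1.87% of all genes. At 4 h, 32 genes were lower, against 59.1% of all genes (median -0.17, all genes -0.083). By 1.3-fold, 12 genes were lower, which is 25.5% against 20.1% of all genes, and Fen1, Pold2, Pold4 and Rfc5 were higher, 8.51% against 9.06%. The 12 genes were Cdc7, Dbf4, Gins1, Gins3, Mcm4, Orc1, Orc2, Pold3, Pole2, Pole4, Prim1 and Rrm2. At 6 h the sign turned, for the replication genes and for all genes alike (median 0.076, all genes 0.063). With HU210, 34 genes were higher and 13 lower, against 34.6% of all genes lower. A difference of 1.3-fold was reached only by Orc2 (0.38), against 6.82% of all genes higher, and by Fen1 (-0.43), against 2.15% lower. At 8 h, 26 genes were lower, against 37.5% of all genes (median -0.025, all genes 0.045). Orc4 (0.60) and Rfc4 (0.40) were higher by 1.3-fold, against 4.8% of all genes, and none was lower, against 1.75% of all genes. Both genes have their lowest value of all 8 libraries in the DMSO library of 8 h.

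A difference of 1.5-fold was reached 3 times. At 4 h it was reached by Gins1 (-0.61), against 8.99% of all genes lower, and by Fen1 (0.60), against 2.91% higher, and at 8 h by Orc4, against 1.52% higher. The calls depended on the DMSO library of the same hour. With the mean of the 4 DMSO libraries as reference, 1 gene was lower by 1.3-fold at 4 h in place of 12 (5.64% of all genes), and 0 were higher in place of 4 (2.07% of all genes). Centring each library on its median shifts all genes of an hour alike. With it, 5 replication genes were lower by 1.3-fold at 4 h (13.3% of all genes) and 6 were higher (14.7%). Their medians were then -0.077, -0.072, -0.0071 and -0.087 at 2, 4, 6 and 8 h, and those of all genes tested were -0.0034, 0.019, -0.021 and -0.018.

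**Figure D3:**
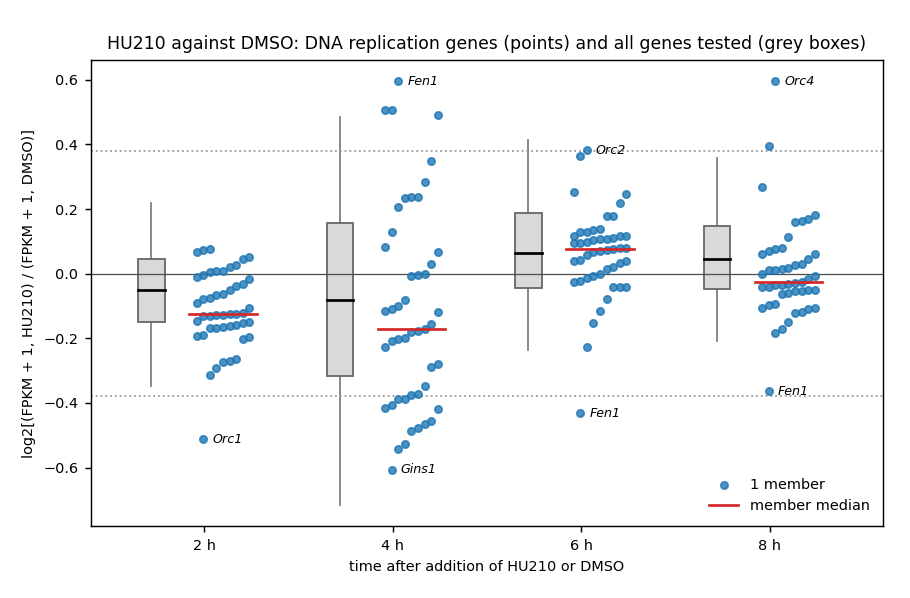
The log2 ratio of HU210 over DMSO, FPKM + 1 on both sides, at each hour. Points are the 47 replication genes with their median as a red line; grey boxes give the quartiles of all 11306 genes tested, whiskers their 5th and 95th percentiles, and dotted lines mark 1.3-fold. The points lie mostly below 0 at 2 h (37 of 47) and 4 h (32 of 47) and mostly above it at 6 h (34 of 47), as the grey boxes do.

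The direction of a replication gene at 4 h went with the GC content of its transcript. Of the 23 genes with a GC content of at most 47.8%, 22 were lower with HU210 at 4 h, with a median of -0.37. Of the 24 genes with a GC content of 48.4% or more, 10 were lower, with a median of 0.049. The Spearman correlation between GC content and the 4 h difference was 0.66 across the 47 genes and 0.53 across 10775 genes, which share the same 2 libraries and are no independent replicates. At 6 h it had the opposite sign, -0.36 across the 47 genes and -0.30 across all genes. After removal of the trend on GC content and length over all genes, 3 of the 47 genes were lower by 1.3-fold at 4 h (14.2% of all genes) and 3 were higher (4.89% of all genes). Taken over both arms, the difference between late and early libraries had little relation to GC content, with a Spearman correlation of 0.10 across the 47 genes and 0.018 across all genes. This does not hold for the arms apart. The late difference with HU210 minus that with DMSO had a Spearman correlation with GC content of -0.68 across the 47 genes and -0.48 across all genes. The relation within each single arm is not given here.

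**Figure D4:**
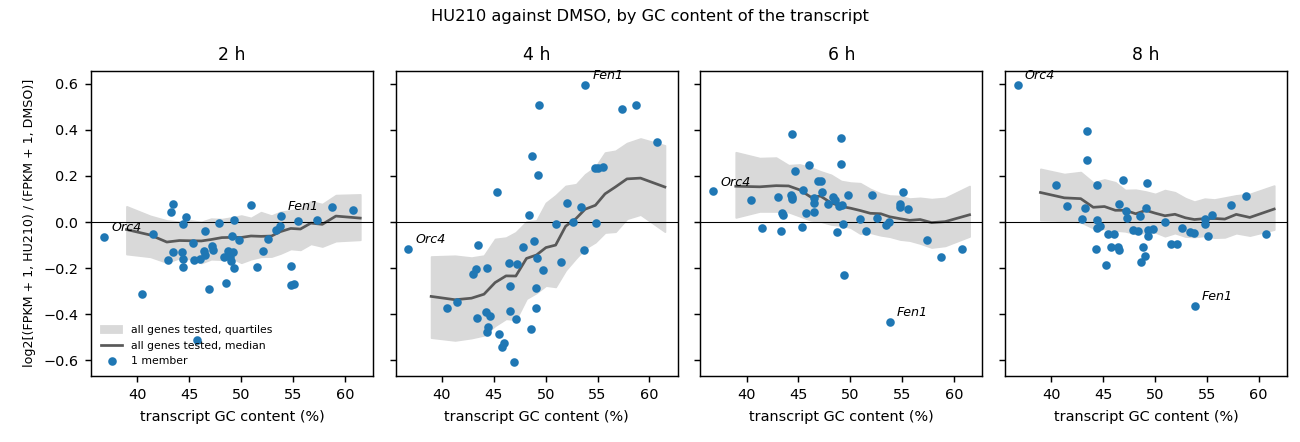
The log2 ratio of HU210 over DMSO (vertical axis) against the GC content of the transcript in percent (horizontal axis), 1 panel per hour. Points are the 47 replication genes, the grey line and band are the median and quartiles of all genes tested in 20 bins of GC content. At 4 h points and line climb together from low to high GC content, at 6 h they descend, and Fen1 lies outside the band at 4 h, 6 h and 8 h.

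Over the 4 time points taken as replicates, no difference between HU210 and DMSO was called. The limma fit used the time point as a block (3 residual degrees of freedom). This fit gave 36 of 47 genes below 0, against 51.6% of all genes (medians -0.043 and -0.0033). At an adjusted p of 0.05 it called 0% of all genes, and at an unadjusted p under 0.05 it called 0 replication genes, against 0.619% of all genes higher and 0.69% lower. With all 4 hours, the largest mean difference was that of Orc1, at -0.28, while without 4 h it was -0.19 and that of Fen1 -0.26. Its values were -0.51, -0.54, 0.041 and -0.11 at 2, 4, 6 and 8 h, so the difference lay in the first 2 time points.

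Whether the log2 ratio of HU210 over DMSO shifted between the early and the late hours was tested as an interaction. This ratio was higher at 6 h and 8 h than at 2 h and 4 h for 36 of 47 genes, with a median shift of 0.19 against 0.12 over all genes. The shift was below 0 for 11 of the 47 genes and for 34.4% of all genes, so most genes shifted upward. At an adjusted p of 0.05 the limma fit (4 residual degrees of freedom) called 0% of all genes. With an unadjusted p under 0.05, Gins1, Orc1, Orc2, Pold3 and Pole3 had a positive shift, 5 of 47 against 14% of all genes, and Fen1 a negative one, against 1.8%. The unadjusted count of 6 genes in either direction (15.8% of all genes) was 13 without the 2 h libraries (27.1%), 1 without those of 4 h (6.83%), 1 without those of 6 h (5.30%) and 3 without those of 8 h (10.0%). Centring each library on its median moved the median of all genes from 0.12 to -0.031, and the shift of the replication genes was then 0.040. After correction of the values for GC content and transcript length (10585 genes), the median shift was 0.14 for the replication genes and 0.12 for all genes. The replication genes thus lay closer to all genes than without this correction. Their number below 0 was again 11 and their unadjusted count again 6 (16.1% of all genes). Within each arm, late levels were below early ones for 43 genes with DMSO (median -0.21, all genes -0.058) and for 30 genes with HU210 (median -0.040, all genes 0.061).

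Fen1, the flap endonuclease that trims Okazaki fragments, had a time course unlike that of most replication genes. It had 24.1, 29.9, 20.8 and 20.8 FPKM with HU210 at 2, 4, 6 and 8 h and 23.6, 19.5, 28.4 and 27.0 FPKM with DMSO. The arms were level at 2 h, HU210 was higher at 4 h and lower at 6 h and 8 h, with log2 differences of 0.027, 0.60, -0.43 and -0.36. Its shift in the interaction fit was -0.71 ± 0.19 (adjusted p = 0.187). Fen1 and Orc2 were the replication genes that passed 1.3-fold in opposite directions at different hours, 2 of 47 against 7.43% of all genes. In the annotation of mm9, Fen1 lies on chromosome 19 from 10273622 to 10278659 on the minus strand, and its exons share 1909 bp with the noncoding gene Gm10143 and 130 bp with 1810006K21Rik, both on the opposite strand. The latter had log2 differences of -0.062, -0.14, -0.16 and -0.81 at the 4 hours. The part of reads from the opposite strand in the values of Fen1 was not tested.

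Promoters of the replication genes were searched for the binding motif of E2F, since E2F factors are known to control many of these genes. The letters searched were TTTCCCGC, TTTGGCGC, TTTGCCGC and TTTCGCGC on both strands, which may overlap each other, in the RefSeq promoters of build GRCm38.p6 that span 250 bases before to 50 bases after a transcription start. A promoter was found for 41 of the 47 genes, with 51 starts in all, and none for Gins1, Gins4, Gmnn, Mcm4, Prim2 and Rfc2. A motif occurred in 17 of 51 starts (33.3%) and 16 of 41 genes (39.0%), against 2.26% of all 32851 starts and 4.09% of the starts of genes tested. Of the 8 genes with all late libraries below all early ones, 7 had a promoter and 4 of these held a motif (Mcm3, Mcm5, Mcm7 and Rfc3). Pcna, Orc6 and Rfc4 held none of these letters in the window, and neither did Fen1. CCAAT, the motif bound by NF-Y, occurred on either strand in 52.9% of the starts of the replication genes, 37.4% of all starts and 38.5% of the starts of genes tested. A match of letters is a description and not a measured site.

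Shown here is a window of 60 bases upstream of the start for 4 of the replication genes with a match upstream of the start. They are those whose window overlaps no gene listed by RefSeq, 2 of the MCM ring, 1 of GINS and 1 of the clamp loader. Bases run 5′ to 3′ on the strand of the gene, with the matched letters in capitals. Counted from the start, the window runs from -173 to -114 for Mcm5 and from -130 to -71 for Mcm6. It runs from -61 to -2 for Gins3 and from -60 to -1 for Rfc3. The window of Mcm5 is chr8:75109336-75109395 (plus strand), that of Mcm6 chr1:128359776-128359835 (minus strand), that of Gins3 chr8:95633498-95633557 (plus strand) and that of Rfc3 chr5:151651209-151651268 (minus strand), all in GRCm38.p6.
Mcm5: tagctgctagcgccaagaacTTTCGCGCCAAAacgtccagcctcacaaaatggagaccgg
Mcm6: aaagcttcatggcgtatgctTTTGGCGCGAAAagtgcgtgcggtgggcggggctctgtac
Gins3: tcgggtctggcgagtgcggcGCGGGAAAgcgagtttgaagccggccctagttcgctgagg
Rfc3: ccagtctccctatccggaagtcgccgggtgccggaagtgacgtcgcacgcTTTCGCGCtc
In Mcm5 and Mcm6 the capitals cover 12 bases because matches on both strands overlap. The levels of these genes ran from 53.8 to 71.7 FPKM for Mcm5, from 64.5 to 81.8 FPKM for Mcm6, from 3.12 to 4.82 FPKM for Gins3 and from 34.4 to 45.3 FPKM for Rfc3.

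Genes that work beside the replication machinery, in 5 lists that were drawn up by function, had median late differences between -0.092 and -0.059. Over all genes tested the median was -0.0072, and 52.2% of them were lower late. For genes of the replication checkpoint, 12 of 15 were lower late (median -0.059), for partners in origin licensing and firing 10 of 14 (median -0.090), and for deoxynucleotide supply 10 of 14 (median -0.092). For lagging strand processing, topoisomerases and chromatin assembly the count was 15 of 21 (median -0.061) and for E2F and pocket proteins 15 of 17 (median -0.077). None of these 81 genes passed the adjusted test in the limma fit, and with an unadjusted p under 0.05 there were 3 lower, against 2.87% of all genes, and 2 higher, against 4.33%. The lower genes were Chaf1b, Dna2 and Dscc1, and the higher genes Zranb3 (0.32 ± 0.12) and Lin37 (0.30 ± 0.11). All late libraries lay below all early ones for 2 of the 81, Chaf1b and Dna2, against 2.2% of all genes, and in no list above them. Chaf1b, a subunit of the factor that places histones on new DNA, had 31.3, 25.9, 22.9 and 25.5 FPKM with HU210 at 2, 4, 6 and 8 h and 33.3, 28.0, 22.2 and 22.5 FPKM with DMSO, a late difference of -0.33 ± 0.097. E2f1, which encodes an activating E2F, had 27.9, 24.4, 24.8 and 22.6 FPKM with HU210 and 29.4, 24.6, 23.5 and 19.9 FPKM with DMSO, a late difference of -0.22 ± 0.097. Its highest value of each arm was at 2 h and its lowest at 8 h. The largest late difference among the E2F and pocket proteins was that of Lin37, in the opposite direction.

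At 4 h these lists had larger single differences between the arms than the replication genes. Nme1, a nucleoside diphosphate kinase, had 355 FPKM with HU210 and 132 FPKM with DMSO (log2 difference 1.42), where its other DMSO libraries had 247 to 334 FPKM. Wee1, an inhibitory kinase of the cell cycle, had 4.75 FPKM with HU210 and 10.2 FPKM with DMSO (-0.96). Ccna2, the S phase cyclin, had 45.9 FPKM with HU210 and 81.8 FPKM with DMSO (-0.82), and its DMSO library of 4 h was the highest of all 8. Rbl2, a pocket protein, had 2.20 FPKM with HU210 and 7.11 FPKM with DMSO (-1.34), again with DMSO at 4 h as the highest library. These 4 genes were picked for their large 4 h difference, and Rnaseh2b (-0.97) was passed over although its difference exceeded that of Wee1. E2f5 (-0.822) was passed over too, with a difference slightly beyond that of Ccna2 (-0.820). For the 4 genes the DMSO library of 4 h was the lowest or the highest of all 8, which their choice by the 4 h difference favors. Over all genes tested it was the highest of all 8 for 27.3% and the lowest for 18.3%. The HU210 library of 4 h was the lowest of its arm for Wee1, Ccna2 and Rbl2 too.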

How the data were processed

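The 8 libraries each pooled mRNA of 2 to 3 experiments. The authors aligned the reads to mm9 with TopHat (version 2.0.8), bowtie (version 2.1.0) and samtools (version 0.1.7), and they obtained FPKM with Cufflinks and Cuffdiff, with its corrections for multireads and fragment bias and scaled to the upper quartile. The deposited FPKM carry an added 1, which was subtracted here. A stranded mRNA kit is named among the study's materials, but whether alignment and counting used strand, and the versions of the gene models and of Cufflinks, are not given in the sources used here. The low values had no constant step per read, so the reads per gene are unknown. The log2 ratio, p-value and q-value columns of the authors' own comparison, and the authors' second table, were not used.

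Ratios were taken on log2(FPKM + 1), which understates the change of low genes. The 3 limma fits (version 3.58.1, eBayes with trend, R 4.3.3) used 11306 genes with Benjamini-Hochberg adjustment. Hours stand in for replicates there, and each SE is that of the fit. With the time point as a block, the residual is the spread of the arm difference over the hours. In the other fits it is the spread within the early and within the late hours. For the late fit it also holds the disagreement between the arms. Those fits count both libraries of an hour as separate replicates. The fits were tested on simulated data. Positions, GC content and lengths are from GENCODE on mm9 (10585 genes tested had them), and a loess curve (span 0.3) gave the trend on GC content and length.

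Genes were given with their 8 values if they differed by 1.5-fold once or by 1.3-fold at 2 or more hours, passed an adjusted test, or had the highest or lowest mean of their complex, and other lists by at most their 3 largest changes. Outside this rule, Gins4, Mcm3, Mcm5, Orc6 and Rfc3 were given because their late libraries lay below the early ones, after their values had been seen. The genes and all lists were chosen with earlier results of these data known. Other settings were a pseudocount of 0.1, libraries centred on their medians, no minimum or one of 5 FPKM, the mean of the 4 DMSO libraries as reference, removal of the GC and length trend, single treatments, a slope per hour, no block and leaving out each hour. For the late difference and the interaction, removal of the trend was added after the data had been seen, as were all settings of the count of genes whose late libraries lay below the early ones.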

Additional observations from a re-analysis of the deposited data

Results flagged for a closer look

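Fen1 and Orc2 moved past 1.3-fold in opposite directions at different hours. For Fen1 the log2 ratio of HU210 over DMSO was 0.595 at 4 h and -0.433 at 6 h. For Orc2 it was -0.479 at 4 h and 0.382 at 6 h. With 1 library per condition, the difference between 4 h and 6 h itself was not tested, and opposite calls of this kind occurred in 7.43% of all genes tested. The interaction of treatment with late against early hours in the limma fit gave an adjusted p of 0.187 for Fen1 and 0.236 for Orc2.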

How the results depend on the processing

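Over all settings tried, 79 of 110 counts of genes (without the counts at an adjusted p) stayed within 1.5 times the value reported, and 184 of 189 values of single genes kept their direction. Many of these values are the late difference of the 8 genes picked because all late libraries lay below all early ones. Leaving out an hour or an arm cannot turn their sign, so they are no check of direction. All changes of sign fell in the mean difference between HU210 and DMSO over the 4 time points. With libraries centred on their medians, 5 genes were lower with HU210 by 1.3-fold at 4 h in place of 12 (13.3% of all genes), 0 higher at 6 h in place of 1, 1 higher at 8 h in place of 2 and 1 lower at 8 h in place of 0. Without the trend on GC content and length, these counts were 3 lower at 4 h (14.2% of all genes), 0 higher at 6 h and 1 higher at 8 h. With the mean of the 4 DMSO libraries as reference, none was lower at 2 h (0 in place of 1), 1 was lower at 4 h, and at 4 h, 6 h and 8 h there were 0 genes higher and at 6 h also 0 lower. A pseudocount of 0.1 gave 2 higher at 6 h. For HU210 against DMSO over the 4 time points, the count at an unadjusted p under 0.05 was 1 in place of 0 with centred libraries, with no minimum FPKM, without the trend, and with no replicate block (time point) in the fit. The block changed no other call. Leaving out each hour in turn gave 0 to 1 such genes. Leaving out hours also turned the sign of single mean differences. With an hour left out, Orc2 ranged from -0.23 to 0.054 and Gins1 from -0.24 to 0.023 (both highest without 4 h), Fen1 from -0.26 to 0.086 (0.063 without 8 h) and Orc4 from -0.015 (without 8 h) to 0.22. For late against early, the unadjusted count of 10 was 16 with a slope per hour (5.79% of all genes lower), 5 with the HU210 libraries alone (3.56%) and 1 to 19 with an hour left out. For the interaction, the unadjusted count of 6 was 1 (12.7% of all genes) and the number of genes below 0 was 21 in place of 11 with centred libraries, and the count was 1 to 13 with an hour left out. The cause of these changes was not tested. With 1 library per condition and unknown reads per gene, a difference at a single hour has no error, and a count near the share of all genes does not show that the replication genes were unaffected.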
